A study of Mus musculus with 24 samples.

Results

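The 6 genes described here are Spp1 (osteopontin), Igf1, Timp2, Serpine2, Csf1 and Csf1r. They were chosen by gene symbol as secreted products of activated microglia and the CSF1 axis, with earlier results of these data known. Each matched 1 of the 56980 rows of the count table. All 6 were among the 14090 genes that passed the filter on low counts. Microglia, the resident macrophages of the brain, were sorted from mice aged 19 months that were Grn+/+ (WT) or Grn-/- (GrnKO), with 6 animals per genotype. Grn encodes progranulin, a secreted glycoprotein that is delivered to the lysosome. Every animal, WT included, was on a C57Bl/6J background and carried an hTfRmu/hu knock-in, a humanised transferrin receptor allele. Actinomycin D and anisomycin were present while the brains were dissociated. Cells positive for CD11b and CD45 were divided by autofluorescence at 488 nm, a readout of lipofuscin, the undigested residue that gathers in old lysosomes. Each animal gave 1 library of 1000 cells from the low bin and 1 from the high bin, which makes 24 libraries in 4 groups of 6.

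Osteopontin is a secreted glycoprotein that binds integrins and CD44, and IGF1 is a growth factor that acts through the receptor tyrosine kinase IGF1R. Both transcripts are known to be raised in microglia of diseased, aged and developing white matter. TIMP2 is a secreted inhibitor of matrix metalloproteinases, and SERPINE2 (protease nexin-1) is a secreted inhibitor of thrombin and plasminogen activators. CSF1 and IL34 are the ligands of CSF1R, the receptor on which microglia depend for survival. TYROBP is an adaptor protein of the TREM2 receptor that also takes part in CSF1R signalling.

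Libraries held 12.9 to 46.8 M (mega) counts (median 30.5 M), and 1.46 to 9.70% of counts were mitochondrial. Levels are given as CPM, a gene's count scaled to a common library total after TMM scaling of library sizes. Grn itself lay between 439 and 1477 CPM in WT libraries and between 0.520 and 20.3 CPM in GrnKO libraries. Xist and Y-linked counts opposed the sex label in 24 of 24 libraries, so the sexes are named here only as labelled. All 13 microglial markers were tested, and their summed level was 12348 to 34528 CPM. Choroid plexus markers were highest in 4 libraries. Without TMM scaling, the sum of 5 such markers was 80300 CPM in WT low animal 9 and 29450 CPM in GrnKO low animal 8. It was 25140 CPM in WT low animal 1 and 17510 CPM in WT high animal 1. With TMM scaling, the group medians of this sum were 253 CPM in WT low, 1266 in WT high, 705 in GrnKO low and 547 in GrnKO high. RNA of many cells was read together, so fewer cells of a type and less RNA per cell cannot be told apart.

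Promoter windows of the 3 genes that rose in the Grn-deficient low bin are shown because these genes rose together. The sequences are from RefSeq on GRCm38.p6, 5′ to 3′ along the gene's strand, and run across the annotated start. They were searched on both strands for CACGTG (the E-box of lysosomal genes), TGANTCA (AP-1) and GAGGAAG (a PU.1 motif), and matches are in capitals. These motifs do not overlap each other. The windows are chr5:104434861-104435160 on the plus strand for Spp1, chr10:87860861-87861160 on the plus strand for Igf1 and chr11:118355362-118355661 on the minus strand for Timp2.
Spp1: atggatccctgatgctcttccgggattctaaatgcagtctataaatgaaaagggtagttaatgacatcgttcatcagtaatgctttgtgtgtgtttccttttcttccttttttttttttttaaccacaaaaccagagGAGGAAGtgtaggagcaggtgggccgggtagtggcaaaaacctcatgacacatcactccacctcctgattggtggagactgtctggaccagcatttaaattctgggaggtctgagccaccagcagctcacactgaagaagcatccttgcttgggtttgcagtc
Igf1: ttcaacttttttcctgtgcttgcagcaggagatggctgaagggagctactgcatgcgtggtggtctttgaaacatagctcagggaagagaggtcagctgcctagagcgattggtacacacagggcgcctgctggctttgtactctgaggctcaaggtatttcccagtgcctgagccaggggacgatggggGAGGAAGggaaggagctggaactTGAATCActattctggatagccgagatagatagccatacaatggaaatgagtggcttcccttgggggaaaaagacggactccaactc
Timp2: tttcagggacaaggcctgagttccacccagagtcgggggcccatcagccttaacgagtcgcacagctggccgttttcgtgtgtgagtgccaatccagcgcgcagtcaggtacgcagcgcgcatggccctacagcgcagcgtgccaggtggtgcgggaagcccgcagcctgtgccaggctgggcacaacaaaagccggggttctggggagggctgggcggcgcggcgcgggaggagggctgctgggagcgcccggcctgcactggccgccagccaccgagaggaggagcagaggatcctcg
The Spp1 window held 1 GAGGAAG match, starting 113 bases before the start. The Igf1 window held 1 GAGGAAG match, starting 60 bases before it, and 1 TGANTCA match, starting 37 bases before it. The Timp2 window held no match, nor did the windows of Serpine2, Csf1 and a second annotated Spp1 start. Of 32851 promoter windows of the same length, 13.6% held GAGGAAG, 7.81% held TGANTCA and 7.15% held CACGTG. RefSeq promoters were used for 5 of the 6 genes. Csf1r had no window, and its chromosome was left out of the search.

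**Figure D1:**
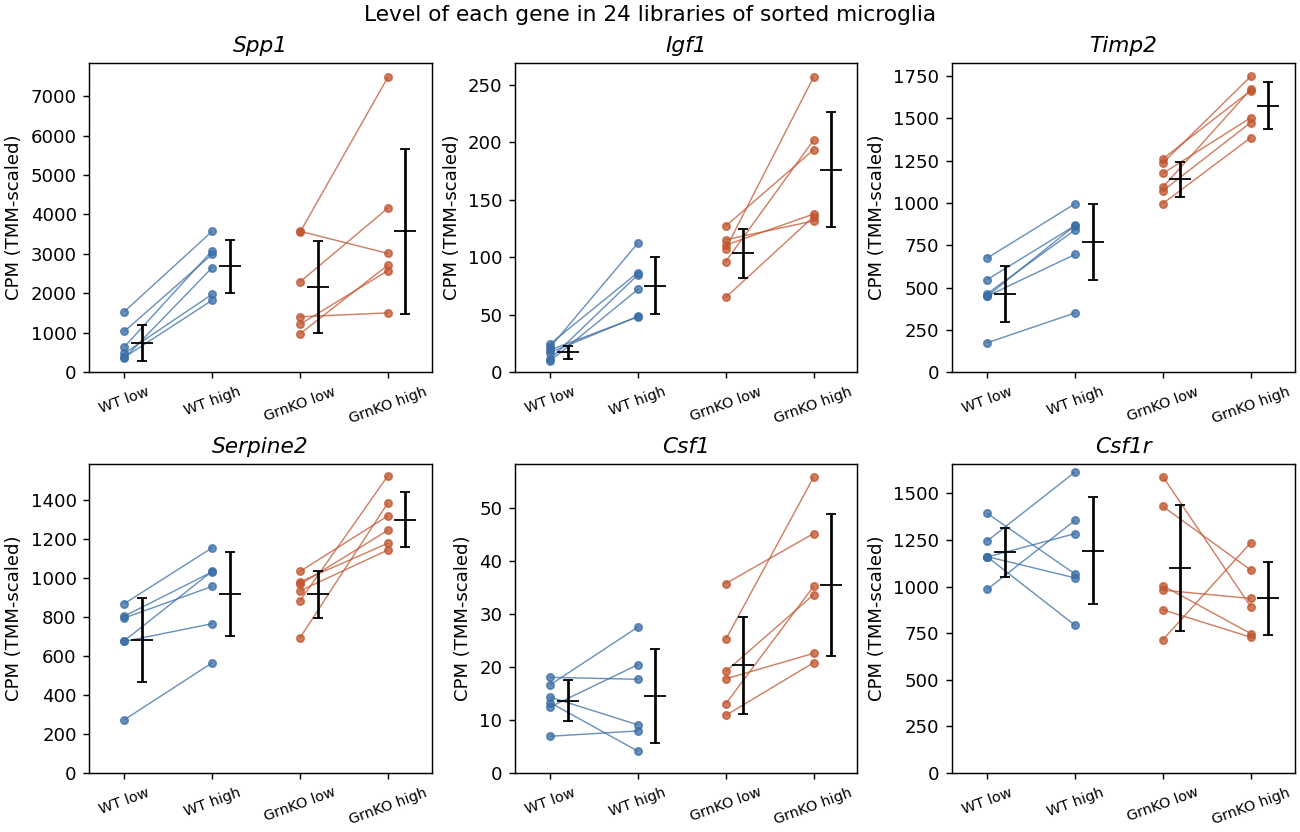
Level of each gene in CPM (TMM-scaled) in the 4 groups of 6 libraries. Points are libraries, lines join the low and high library of 1 animal, and the black bars are mean ± SD. The group means of Igf1 run from 17.3 CPM in WT low to 176 CPM in GrnKO high, and those of Csf1r lie between 938 and 1194 CPM.

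Igf1 rose with Grn loss in both bins and with lipofuscin in WT. In WT low it lay between 9.71 and 24.6 CPM, with a median of 18.2 CPM and a mean of 17.3 ± 5.80 CPM (SD, n = 6). In WT high it lay between 48.2 and 112 CPM, with a median of 78.4 CPM and a mean of 75.4 ± 24.7 CPM. The lowest WT high library was above the highest WT low library, which held for 0.326% of the tested genes. In GrnKO low Igf1 lay between 65.0 and 127 CPM, with a median of 109 CPM and a mean of 103.6 ± 21.4 CPM. In GrnKO high it lay between 132 and 257 CPM, with a median of 166 CPM and a mean of 176 ± 50.1 CPM. In the low bin the GrnKO libraries lay above all WT libraries, as in 0.774% of the tested genes, and in the high bin they did so too, as in 0.724%. Every GrnKO high library lay above every GrnKO low library, as in 0.554%. The ranges of WT high and GrnKO low overlapped, and 2 of the 6 GrnKO low libraries lay above all WT high libraries.

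In the low bin, Igf1 was 6.03-fold higher in GrnKO than in WT, a log2 fold change of 2.59 ± 0.23 (SE) with an adjusted p of 7.74e-08 by edgeR's quasi-likelihood test. In the high bin the difference was 2.34-fold, a log2 fold change of 1.23 ± 0.22 with an adjusted p of 0.0113. The high-bin call was lost without animal 2 (adjusted p = 0.0598, edgeR) or without animal 3 (adjusted p = 0.0570, edgeR). With lipofuscin in WT, Igf1 rose 4.25-fold (log2 fold change 2.09 ± 0.23, adjusted p = 1.51e-05, edgeR). With lipofuscin in GrnKO the fitted ratio was 1.65 (log2 fold change 0.72 ± 0.22), which did not pass the test (adjusted p = 0.232, edgeR). This last comparison did pass with DESeq2 (adjusted p = 0.0496) and with limma-voom, with the animal as a random block (adjusted p = 0.0307) and without a block (adjusted p = 0.0470). A fixed animal term in edgeR gave an adjusted p of 0.275.

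Igf1 was higher in the high library than in the low library of all 12 animals, which held for 0.504% of the tested genes. The ratio of the high to the low library ran from 2.49 to 7.46 in WT animals and from 1.14 to 2.39 in GrnKO animals. No GrnKO ratio reached the lowest WT ratio, a pattern found in 0.185% of the tested genes. The nearest values, 2.39 in GrnKO and 2.49 in WT, are within the rounding of the deposited counts. Fitted over all libraries, the lipofuscin change of Igf1 differed between genotypes by -1.37 ± 0.31 on the log2 scale (GrnKO minus WT). This difference of changes had an unadjusted p of 0.000152 and an adjusted p of 0.786 by edgeR, so it did not pass over all genes. DESeq2 gave it an adjusted p of 0.00354, and limma-voom gave 0.866.

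Spp1 rose with Grn loss in the low bin and with lipofuscin in WT. In WT low Spp1 lay between 354 and 1539 CPM, with a median of 561 CPM and a mean of 738 ± 466 CPM (SD, n = 6). In WT high it lay between 1824 and 3574 CPM, with a median of 2822 CPM and a mean of 2684 ± 676 CPM. All WT high libraries were above all WT low libraries, as in 0.326% of the tested genes. In GrnKO low Spp1 lay between 972 and 3574 CPM, with a median of 1847 CPM and a mean of 2167 ± 1168 CPM. In GrnKO high it lay between 1504 and 7477 CPM, with a median of 2864 CPM and a mean of 3574 ± 2094 CPM. Here the groups overlapped: 3 of 6 GrnKO low libraries were above all WT low libraries, and 2 of 6 GrnKO high libraries were above all WT high libraries.

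In the low bin, Spp1 was 2.86-fold higher in GrnKO, a log2 fold change of 1.52 ± 0.29 (SE) with an adjusted p of 0.00860 (edgeR). Without the sex label in the model the adjusted p was 0.0842 (edgeR), and the call was lost. In the high bin the log2 fold change was 0.26 ± 0.28, with an adjusted p of 0.9997 (edgeR) and a 95% interval from -0.32 to 0.84. With lipofuscin in WT, Spp1 rose 4.06-fold (log2 fold change 2.02 ± 0.29, adjusted p = 0.000671, edgeR). In GrnKO the lipofuscin difference was 0.77 ± 0.28 on the log2 scale and did not pass the test (adjusted p = 0.401, edgeR). Between GrnKO low and WT high, the neighbouring groups in the order of mean level, the log2 difference was -0.50 ± 0.28, with an adjusted p of 0.737 (edgeR).

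Within animals, the ratio of high to low Spp1 ran from 2.32 to 7.50 in WT animals, higher in 6 of 6, as in 3.35% of the tested genes. In GrnKO it ran from 0.843 to 2.79, and 5 of 6 animals were higher in the high bin. The exception was animal 10, with 3574 CPM in the low library and 3012 CPM in the high library. The lipofuscin change of Spp1 differed between genotypes by -1.26 ± 0.40 on the log2 scale (GrnKO minus WT), with an unadjusted p of 0.00402 and an adjusted p of 0.786 (edgeR). No gene of the 14090 was called in this interaction by edgeR (0.00%), and 738 had an unadjusted p under 0.05. DESeq2 called 74 genes and limma-voom called 1. Of the 6 genes, DESeq2 called Igf1 and limma-voom called none.

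**Figure D2:**
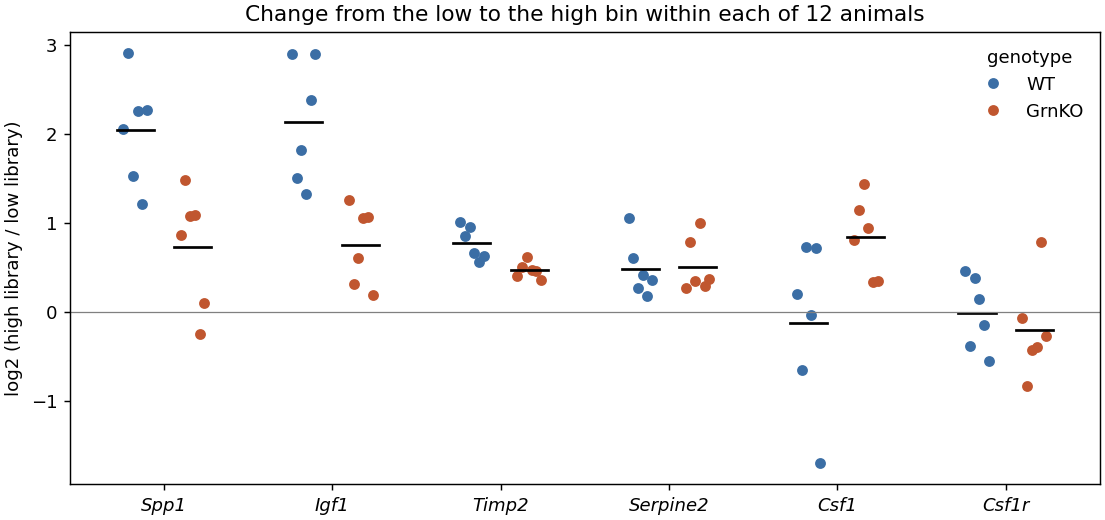
Change from the low to the high library of each animal on the log2 scale, for the 6 genes, with 6 WT animals in blue and 6 GrnKO animals in orange. Horizontal bars are means. The Igf1 points of the genotypes do not overlap (highest GrnKO 1.26, lowest WT 1.32, a gap within the rounding of the deposited counts), and those of Spp1 overlap. The Timp2 and Serpine2 points of all 12 animals lie above 0, as in 0.504% of the tested genes.

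Timp2 rose with Grn loss in the low bin, and every GrnKO library was above every WT library of either bin. Within the low bin such separation held for 0.774% of the tested genes, and within the high bin for 0.724%. In WT low it lay between 174 and 675 CPM, with a median of 457 CPM and a mean of 460.0 ± 165 CPM (SD, n = 6). In WT high it lay between 350.3 and 996 CPM, with a median of 854 CPM and a mean of 769.6 ± 227 CPM. The lowest values of both WT groups came from animal 1, whose libraries had 9.70% mitochondrial counts in the low bin and 7.91% in the high bin, against 1.46 to 2.96% in all others. The part of this in its Timp2 level was not tested. In GrnKO low Timp2 lay between 997 and 1261 CPM, with a median of 1134 CPM and a mean of 1139 ± 103 CPM. In GrnKO high it lay between 1386 and 1748 CPM, with a median of 1584 CPM and a mean of 1575 ± 140.0 CPM. The GrnKO low libraries also lay above the WT high libraries, which held for 0.894% of tested genes, but the gap from 996 to 997 CPM is smaller than the rounding of the deposited counts (up to 5%).

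In the low bin, Timp2 was 2.48-fold higher in GrnKO, a log2 fold change of 1.31 ± 0.23 (SE) with an adjusted p of 0.00433 (edgeR). In the high bin the ratio was 2.05 (log2 fold change 1.03 ± 0.23) with an adjusted p of 0.0619 (edgeR), just outside the threshold. It passed with DESeq2 (adjusted p = 0.000988), with limma-voom and the animal as a random block (adjusted p = 0.00316) and, in edgeR, without animal 1 (log2 fold change 0.88, adjusted p = 0.000157) or without animal 9 (adjusted p = 0.0401). The lipofuscin difference in WT was 0.74 ± 0.23 on the log2 scale (adjusted p = 0.228, edgeR). It passed in edgeR with a fixed animal term as block (adjusted p = 0.000810) and without animal 1 (adjusted p = 0.00376), and with DESeq2 (adjusted p = 0.0481). It did not pass in limma-voom with the animal as a random block (adjusted p = 0.104). In GrnKO the lipofuscin difference was 0.47 ± 0.23 (adjusted p = 0.636, edgeR).

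Within animals Timp2 varied little. Its ratio of high to low ran from 1.48 to 2.01 in WT and from 1.28 to 1.53 in GrnKO. It was above 1 in all 12 animals, as in 0.504% of the tested genes. In the fit without an animal term, the genotype difference in this change was -0.28 ± 0.32 on the log2 scale. It had an adjusted p of 0.9999 (edgeR) and a 95% interval from -0.93 to 0.38. With the animal as a fixed block the difference was -0.31, with an unadjusted p of 0.0392 and an adjusted p of 0.923 (edgeR). In that blocked fit 758 of the 14090 tested genes had an unadjusted p under 0.05.

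Serpine2 did not pass the test in any comparison. Its level in the high bin exceeded that in the low bin in all 12 animals, as in 0.504% of the tested genes. It lay between 273 and 869 CPM in WT low, with a median of 737 CPM and a mean of 683 ± 215 CPM (SD, n = 6). In WT high it lay between 565 and 1156 CPM, with a median of 995 CPM and a mean of 919 ± 216 CPM. In GrnKO low it lay between 694 and 1035 CPM, with a median of 951 CPM and a mean of 916 ± 120 CPM. In GrnKO high it lay between 1145 and 1525 CPM, with a median of 1282 CPM and a mean of 1300 ± 142 CPM. The GrnKO high libraries lay above all GrnKO low libraries, as in 0.554% of the tested genes, and 5 of 6 lay above all WT high libraries. The means of WT high and GrnKO low were close, with a log2 difference of 0.02 ± 0.20 and a 95% interval from -0.38 to 0.42.

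The genotype difference of Serpine2 was 0.45 ± 0.20 on the log2 scale in the low bin (adjusted p = 0.405, edgeR) and 0.51 ± 0.20 in the high bin (adjusted p = 0.515, edgeR). The lipofuscin difference was 0.43 ± 0.19 in WT (adjusted p = 0.551, edgeR) and 0.49 ± 0.20 in GrnKO (adjusted p = 0.459, edgeR). The ratio of high to low ran from 1.14 to 2.07 in WT animals and from 1.20 to 2.00 in GrnKO animals. The interaction was 0.06 ± 0.28 on the log2 scale (adjusted p = 0.9999, edgeR).

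Csf1, the ligand, was at low levels, and its differences did not pass the test. It lay between 6.89 and 18.0 CPM in WT low, with a median of 13.8 CPM and a mean of 13.6 ± 3.89 CPM (SD, n = 6). In WT high it lay between 4.08 and 27.5 CPM, with a median of 13.4 CPM and a mean of 14.4 ± 8.90 CPM. In GrnKO low it lay between 10.8 and 35.7 CPM, with a median of 18.4 CPM and a mean of 20.3 ± 9.09 CPM. In GrnKO high it lay between 20.8 and 55.8 CPM, with a median of 34.4 CPM and a mean of 35.5 ± 13.4 CPM. The GrnKO high libraries were above all WT low libraries, as in 1.80% of the tested genes, and 4 of 6 were above all WT high libraries.

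In the high bin Csf1 was 2.51 times as high in GrnKO, a log2 fold change of 1.33 ± 0.42 (SE) with an unadjusted p of 0.00395 and an adjusted p of 0.324 (edgeR). In the low bin the log2 fold change was 0.55 ± 0.41 (adjusted p = 0.745, edgeR). Within animals Csf1 went up from the low to the high bin in 6 of 6 GrnKO animals, as did 3.28% of the tested genes, with ratios from 1.26 to 2.71. In WT it did so in 3 of 6 animals, with ratios from 0.308 to 1.66. The log2 difference with lipofuscin was 0.81 ± 0.41 in GrnKO (adjusted p = 0.684, edgeR) and 0.03 ± 0.42 in WT (adjusted p = 0.998, edgeR; -0.11 when only library sizes were scaled), and the interaction was 0.78 ± 0.59 (adjusted p = 0.9999, edgeR).

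Csf1r, the receptor, did not pass the test in any comparison. Its mean was 1184 ± 133 CPM in WT low (985 to 1393), 1194 ± 287 CPM in WT high (792 to 1615), 1100 ± 338 CPM in GrnKO low (715 to 1591) and 938 ± 197 CPM in GrnKO high (728 to 1235), each with SD over 6 libraries. The 4 ranges overlapped. The genotype difference was -0.11 ± 0.19 on the log2 scale in the low bin, with a 95% interval from -0.50 to 0.28, and -0.35 ± 0.19 in the high bin, with an interval from -0.74 to 0.04. With lipofuscin it was 0.02 ± 0.19 in WT, with an interval from -0.38 to 0.41 and a value of -0.14 when only library sizes were scaled, and -0.22 ± 0.19 in GrnKO, with an interval from -0.62 to 0.17. None passed the test (adjusted p from 0.894 to 0.998, edgeR). In GrnKO 1 of 6 animals had more Csf1r in the high library, and in WT 3 of 6.

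Over the comparisons, 3 of the 6 genes rose with Grn loss in the low bin, where 0.270% of all tested genes rose. In the high bin 1 of 6 rose, against 0.135% of tested genes. With lipofuscin in WT 2 of 6 rose, against 0.0994% of tested genes, while DESeq2 called 3 of 6, with Timp2 the third, and limma-voom 2. With lipofuscin in GrnKO edgeR called 0 of 6, against 0.206% of tested genes called in either direction. There 4 of the 6 had an unadjusted p under 0.05, as did 1102 of the 14090 tested genes (edgeR). DESeq2 and limma-voom each called 1, Igf1. Between GrnKO low and WT high edgeR called 0 of 6, against 0.213% of tested genes, and DESeq2 and limma-voom called 0. In that comparison 2 of 6 had an unadjusted p under 0.05, as did 1178 of the 14090 tested genes (edgeR). The comparisons share libraries, so their counts are not independent. The 6 genes were chosen with earlier results of these data known, so the counts do not test the genes as a group.

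**Figure D3:**
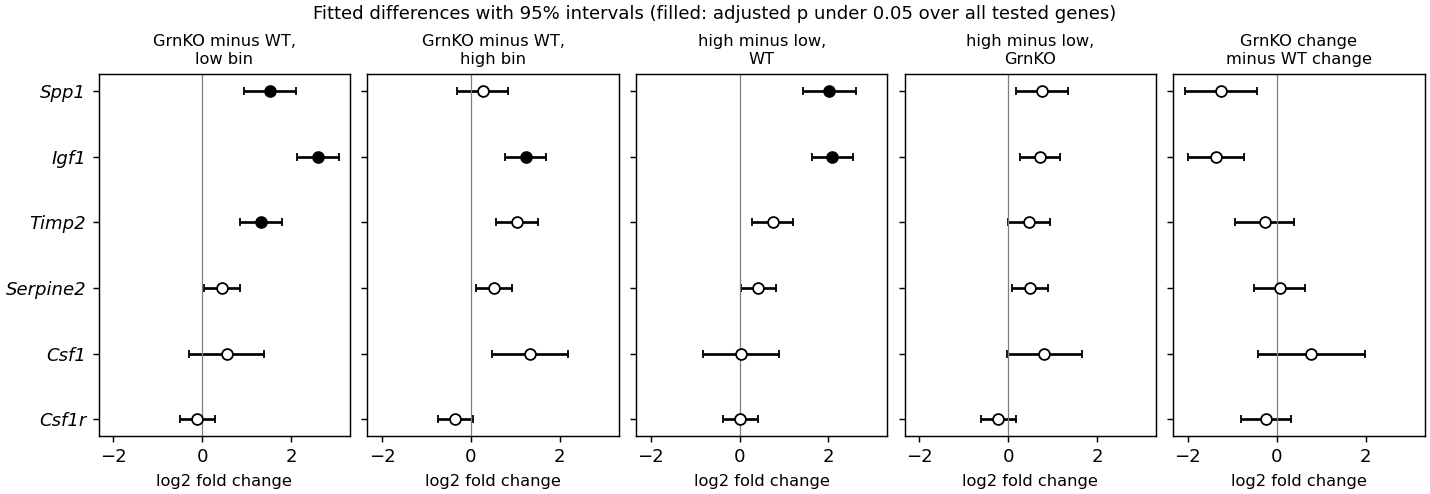
Fitted log2 fold change of each gene with its 95% interval in 4 comparisons and their interaction, from edgeR over 24 libraries. Filled points passed an adjusted p of 0.05 over all 14090 tested genes: Spp1, Igf1 and Timp2 for GrnKO against WT in the low bin, Igf1 in the high bin, and Spp1 and Igf1 for high against low in WT.

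Marker lists of other cell types were summed in the same groups. The summed level of 6 monocyte markers was 298 to 1588 CPM in WT low, 7.17 to 85.5 CPM in WT high, 487 to 2129 CPM in GrnKO low and 16.3 to 160.5 CPM in GrnKO high. Of these markers edgeR called 4 of 6 lower with lipofuscin in WT, where it called 21 of 14090 tested genes lower. In GrnKO it called 2 of 6 lower, where it called 25 of 14090 lower. DESeq2 called 5 of 6 lower in each genotype, and limma-voom called 1 in each, Ccr2 in WT and S100a4 in GrnKO. The sum of 8 T and NK cell markers was 97.5 to 600.3 CPM in WT low and 398 to 1000 CPM in GrnKO low, and 69.9 to 169 CPM in WT high and 65.4 to 261 CPM in GrnKO high. The sum of 7 border macrophage markers was 215 to 310.4 CPM in WT low, 349.6 to 797 CPM in WT high, 175 to 329 CPM in GrnKO low and 182 to 503 CPM in GrnKO high. Of the T and NK cell and border macrophage lists edgeR called 0 in the genotype and lipofuscin comparisons, where 1 to 7 of 8 and 1 to 2 of 7 had an unadjusted p below 0.05. DESeq2 called 0 to 3 and 0 to 1 of these lists, and limma-voom called Cd3d with lipofuscin in GrnKO and no other. The sum of 12 astrocyte markers was 314 to 1389 CPM in WT low and 125 to 336 CPM in GrnKO low, and of the 12 edgeR and limma-voom called 0 (6 of 12 at an unadjusted p below 0.05 in each, all lower in GrnKO), while DESeq2 called Slc1a2 and Aqp4 lower. Every listed marker of these types was detected in some library. Their part in the differences of Spp1, Igf1 and Timp2 was not tested. With the 4 choroid plexus-rich libraries left out, the low-bin log2 fold changes were 1.59 for Spp1, 2.54 for Igf1 and 1.29 for Timp2, and all 3 still passed (adjusted p from 4.31e-07 to 0.00529, edgeR).

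Among 16 other genes of the CSF1 axis, edgeR called 1 in the 4 genotype and lipofuscin comparisons. Tyrobp rose in the Grn-deficient low bin (log2 fold change 1.00 ± 0.20, adjusted p = 0.0157, edgeR), where 0.270% of tested genes rose. Its mean was 4092 ± 406 CPM in WT low and 8086 ± 2442 CPM in GrnKO low (SD, n = 6). Of these 4 comparisons limma-voom called it in that one alone. DESeq2 called Tyrobp there and also higher with lipofuscin in WT, where the WT high mean was 6809 ± 1934 CPM. Il34, the other CSF1R ligand, lay between 0 and 8.67 CPM in all libraries. Lyn, a Src-family kinase, had a log2 fold change of -0.38 ± 0.14 in the high bin (adjusted p = 0.471, edgeR), and Csf2ra, a subunit of the GM-CSF receptor, had 0.75 ± 0.29 in the low bin (adjusted p = 0.315, edgeR). The median log2 fold change of the list in the low bin was -0.13, beside -0.03 over all tested genes.

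Of 10 tested osteopontin receptor genes, edgeR called 0 in the 4 genotype and lipofuscin comparisons, as did DESeq2 and limma-voom. Between 1 and 3 of them had an unadjusted p under 0.05 in each comparison (edgeR). Itgav, the alpha-V integrin subunit, had a log2 fold change of -0.76 ± 0.35 with Grn loss in the low bin (adjusted p = 0.459, edgeR) and -0.92 ± 0.35 in the high bin (adjusted p = 0.532, edgeR). Cd44, a hyaluronan and osteopontin receptor, had -1.38 ± 0.51 with lipofuscin in WT (adjusted p = 0.397, edgeR) and -1.12 ± 0.51 in GrnKO (adjusted p = 0.580, edgeR), and Itga4 had -2.73 ± 0.97 in WT (adjusted p = 0.356, edgeR). Cd44 and Itga4 are also expressed by monocytes and lymphocytes, and the part of those cells was not tested.

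Of 11 tested genes of the IGF axis, edgeR called 0 in these 4 comparisons, with 0 or 1 at an unadjusted p under 0.05 in each. DESeq2 called Htra1 with Grn loss in the low bin and Igfbp2 with lipofuscin in GrnKO, and limma-voom called 0. Htra1, a secreted protease that cleaves IGF-binding proteins, had a log2 fold change of -4.28 ± 1.23 in the low bin (adjusted p = 0.141, edgeR), with 0.0714 to 83.3 CPM in WT low and 0 to 5.91 CPM in GrnKO low. Astrocytes, which lack CD11b and CD45, are known to express Htra1, and the part of astrocyte RNA was not tested. Igfbp2, an IGF-binding protein, had -4.30 ± 1.73 with lipofuscin in GrnKO (adjusted p = 0.469, edgeR).

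Of 13 tested metalloproteinase, ADAM and TIMP genes, edgeR called 0 in the 4 comparisons, with 0 to 2 at an unadjusted p under 0.05 in each. DESeq2 called Mmp8 with lipofuscin in WT and Mmp8 and Mmp9 with lipofuscin in GrnKO, and limma-voom called 0. Mmp8, the neutrophil collagenase, had log2 fold changes of -4.98 ± 1.57 in WT (adjusted p = 0.271, edgeR) and -4.56 ± 1.49 in GrnKO (adjusted p = 0.314, edgeR), with 11.1 to 175 CPM in WT low and 0.0321 to 7.40 CPM in WT high. Mmp2, a gelatinase that TIMP2 binds, had 1.85 ± 0.64 with lipofuscin in WT (adjusted p = 0.337, edgeR), with a mean of 10.1 ± 11.2 CPM in WT low and 35.4 ± 26.6 CPM in WT high (SD, n = 6).

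Of 14 tested serpin and plasminogen-system genes, edgeR called 0 in the 4 comparisons, with 2 to 4 at an unadjusted p under 0.05 in each, and limma-voom called 0. DESeq2 called Serping1, F2r and Serpinb6a with Grn loss in the low bin, 2 of them higher and 1 lower. It called F2r higher with lipofuscin in WT, and Plau and Serpinb1a with lipofuscin in GrnKO. F2r had a count of 0 in every WT low library, the reference group of both its calls. Serpinb6a, an intracellular serpin, had log2 fold changes of 1.49 ± 0.46 in the low bin (adjusted p = 0.169, edgeR) and 1.36 ± 0.45 in the high bin (adjusted p = 0.369, edgeR). Plau, the urokinase that SERPINE2 inhibits, had 2.83 ± 0.82 with lipofuscin in GrnKO (adjusted p = 0.210, edgeR), with 0.484 to 6.60 CPM in GrnKO low and 1.96 to 19.7 CPM in GrnKO high. Serpinb1a, an inhibitor of neutrophil proteases, had -2.82 ± 0.71 in the same comparison (adjusted p = 0.135, edgeR).

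Of 19 tested growth factor genes other than the members, edgeR called 0 in the 4 comparisons, with 1 to 4 at an unadjusted p under 0.05 in each, and DESeq2 and limma-voom called 0. Osm, a cytokine of the IL-6 family, had a log2 fold change of -1.48 ± 0.49 with lipofuscin in WT (adjusted p = 0.288, edgeR), with a mean of 38.5 ± 27.1 CPM in WT low and 13.3 ± 8.74 CPM in WT high (SD, n = 6). Vegfb had 0.67 ± 0.28 with Grn loss in the high bin (adjusted p = 0.624, edgeR). Pdgfa had 0.95 ± 0.37 with Grn loss in the low bin (adjusted p = 0.325, edgeR). The median log2 fold change of the list in the low bin was -0.23, beside -0.03 over all tested genes.

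The pattern of each gene over the 24 libraries was set beside that of 6835 genes by Pearson's r of log2(CPM + 1), as a description over libraries that share animals and genotype. The pattern of Timp2 was closest to those of Npc2 (r = 0.981), a lysosomal cholesterol carrier, Ctsb (r = 0.972), a cathepsin, and Pld3 (r = 0.965), a lysosomal nuclease. Igf1 was closest to Cd63 (r = 0.952), a tetraspanin of late endosomes, Fabp5 (r = 0.939), a fatty acid carrier, and Ftl1 (r = 0.922), the ferritin light chain. Spp1 was closest to Apoe (r = 0.846), Creg1 (r = 0.826) and Lgals3bp (r = 0.820), and Serpine2 to Camk1 (r = 0.925), Rnaset2a (r = 0.924) and Ppt1 (r = 0.915). The highest values were lower for Csf1, at 0.760 with Cadm1, and for Csf1r, at 0.717 with Lrrc3.

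After the 4 group means were subtracted, Timp2 and Serpine2 had r = 0.792 over 24 libraries. Without the 2 libraries of animal 1 this value was -0.0788 over 22 libraries, so it rested on that animal. Timp2 after subtraction was closest to Lamtor1 (r = 0.951) and Npc2 (r = 0.941). Without animal 1 these values fell to 0.632 and 0.623. Spp1 and Igf1 had r = 0.495 after subtraction and 0.508 without animal 1. For Igf1 the closest genes after subtraction were Erg28 (r = 0.785), Fabp5 (r = 0.739) and Ftl1 (r = 0.710). For Spp1 they were Cd63 (r = 0.751), Bnip3 (r = 0.669) and Xist (r = 0.665, Spearman's rho 0.464). The sex label was not subtracted, and Xist and Y-linked counts opposed that label in 24 of 24 libraries. The value for Xist is thus not separate from the difference of Spp1 between sex labels.

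Spp1 was also read by sex label. In GrnKO low it was 2289 to 3574 CPM in the 3 animals labelled male and 972 to 1405 CPM in the 3 labelled female. In GrnKO high it was 3012 to 7477 CPM and 1504 to 2716 CPM. The classes of 3 animals did not overlap in either GrnKO group. The share of tested genes whose classes part in this way was not counted, here or for Igf1 below. In WT low the values were 477 to 1539 CPM and 354 to 644 CPM, and in WT high 1977 to 3574 CPM and 1824 to 3082 CPM, and both pairs overlapped.

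Over all groups the log2 difference of Spp1 between labelled females and labelled males was -0.96 ± 0.20 (SE), with an adjusted p of 0.0825 (edgeR), where 0.0710% of tested genes were called. This comparison was added after the data had been seen and did not pass. The sex label differs between animals, and this fit counts both libraries of an animal separately. limma-voom gave an adjusted p of 0.0499 with unblocked libraries and 0.0924 once a random animal effect was added. Of 20 alternatives 7 passed, among them DESeq2 (adjusted p = 0.000322) and the edgeR fits without animal 1 (adjusted p = 0.00374) or animal 7 (adjusted p = 0.0347), and the highest adjusted p was 0.270 (edgeR). Igf1 was 194 to 257 CPM in GrnKO high animals labelled male and 132 to 138 CPM in those labelled female. In WT high it was 84.8 to 112 CPM and 48.2 to 72.0 CPM. In the low bin the classes overlapped, with 96.2 to 127 CPM and 65.0 to 115 CPM in GrnKO low. In WT low they were 11.4 to 24.6 CPM and 9.71 to 19.3 CPM. The log2 difference of Igf1 over all groups was -0.49 ± 0.15 (adjusted p = 0.572, edgeR). The effect of Grn loss was compared between the labelled sexes for all 6 genes, and edgeR called 0 of 6, against 0.00710% of tested genes. For Spp1 that difference was -0.59 ± 0.37 on the log2 scale (adjusted p = 0.682, edgeR).

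**Figure D4:**
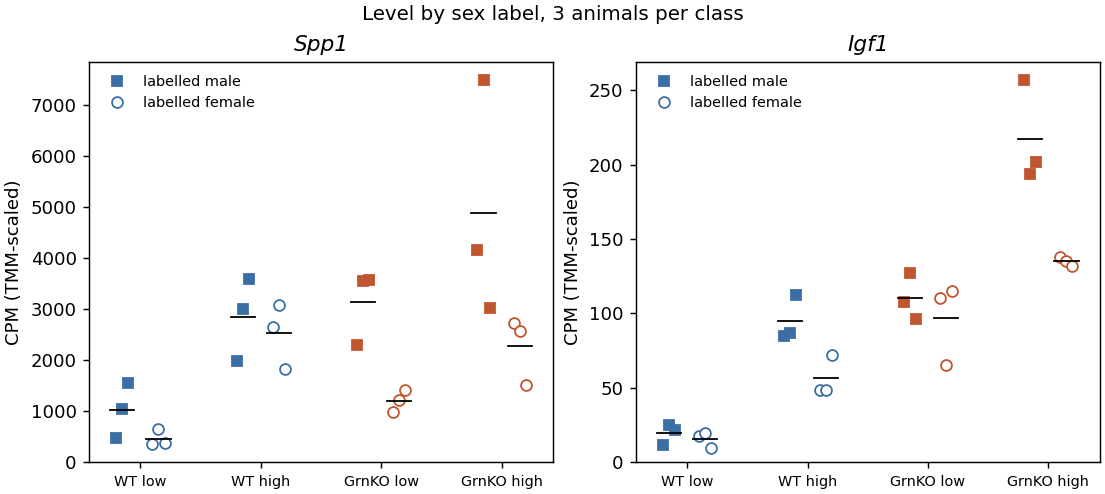
Spp1 and Igf1 in CPM (TMM-scaled) by group and sex label, with 3 animals in each class. Filled squares are animals labelled male, open circles animals labelled female, and bars are means. Spp1 was 2289 CPM or more in GrnKO low animals labelled male and 1405 CPM or less in those labelled female. The share of tested genes that part in this way was not counted.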

How the data were processed

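RNA from 24 libraries was sequenced as single-end reads from cDNA made with a SMARTSeq 3' kit, per the labels' protocols. Per the submitters' processing notes, the tools were edgeR 4.6.2, Salmon 1.10.1, R 4.5.1 and STAR 2.7.9a on GRCm39. Strand settings were not given in the sources used here. The authors deposited estimated counts per gene, written with 2 significant digits, which is a rounding of up to 5% of a value. Among values below 10, 8.28% had a fraction (tolerance 1e-09). A deposited table of normalized CPM and a sample sheet were not used. Promoters are from RefSeq on GRCm38.p6, another build than that of the counts.

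The plan had assumed counts, so estimated counts were rounded to whole numbers. Of 56980 genes, filterByExpr removed 42890 and left 14090. A quasi-likelihood model (edgeR 4.0.16 in R 4.3.3, robust glmQLFit, glmQLFTest, TMM scaling) used all 24 libraries, the 4 groups and the sex label as covariate. The common biological coefficient of variation was 1.08. A gene was called at a Benjamini-Hochberg adjusted p under 0.05 over all tested genes, 2-sided. The 7 planned comparisons were the genotype difference in each bin, the lipofuscin difference in each genotype, their interaction, GrnKO low against WT high and the genotype difference between labelled sexes. Alternatives were DESeq2 1.42.0, limma-voom (limma 3.58.1), RLE size factors, library size only, other filters, no sex term, the groups alone, an animal block and leaving out each animal. The fit was also run on simulated libraries, drawn as independent and with changes only in genes of higher level and lower spread. That run does not show how the fit behaves on libraries paired by animal or on more variable genes.

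Low and high libraries are paired by the animal number of the labels. The 2 libraries of an animal, each taken as its deviation from the group mean, had r from -0.0481 to 0.361 (median 0.112), over 0.1 in 7 of 12 animals, and limma's consensus correlation was 0.0872. Genes named are the 6 members, Grn, the genes of each pathway list that were called or, where none was, up to 2 of smallest p per comparison, and the 3 genes of highest likeness. Some of these are not described. Genes called by DESeq2 in those lists, Il34 and Mmp2 were added with their values in view. The members and lists were chosen with earlier results of these data known. Likeness used log2(CPM + 1) and genes with a mean of at least 10 CPM. Plots were made in Python 3.11.15 (matplotlib 3.10.9).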

Additional observations from a re-analysis of the deposited data

Results flagged for a closer look

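Serpine2 was 272.7 CPM in the WT low library of animal 1, and the other 5 WT low libraries lay between 675 and 869 CPM. The gap to the nearest library was 0.674 of the group's whole range, beyond the limit for a group of 6. The same animal was also lowest in Timp2 in both bins, and both its libraries were among the 4 richest in choroid plexus markers. They also held 9.70% (low) and 7.91% (high) mitochondrial counts, against 1.46 to 2.96% in the other libraries, and the low library had the lowest total, 12.9 M counts. The part of these in the value was not tested. Of 24 groups examined for a library apart, 1 was found, and chance gives about 1 in 20.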

How the results depend on the processing

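Of 1204 pairs of result and alternative, 1103 kept their direction and side of the threshold or had an equal or close count of genes called. A count of 3 against 2, as for DESeq2 against edgeR with lipofuscin in WT, was taken as close. The low-bin calls of Igf1 and Timp2 and the WT lipofuscin calls of Spp1 and Igf1 held in all alternatives run. The low-bin call of Spp1 held in all but the fit without the sex label (adjusted p = 0.0842, edgeR). In the high bin 2 of the 6 genes were called, not 1, with RLE size factors, DESeq2, limma-voom with and without the replicate block, no filter, a filter at 10 CPM and with the 4 choroid plexus-rich libraries left out (an alternative chosen after seeing the data), and 0 to 2 when animals were left out in turn. With lipofuscin in GrnKO the count was 1 with DESeq2, both limma-voom fits (Igf1) and no filter (Spp1). The interaction count was 1 with DESeq2 (Igf1) and with no filter (Spp1). The sex label count was 1 with RLE size factors, DESeq2, limma-voom without a block, no filter and without the choroid plexus libraries, and 0 to 1 when animals were left out. Within edgeR the fixed animal block changed 1 call of the 6 genes, that of Timp2 with lipofuscin in WT (adjusted p = 0.000810, against 0.228). Within limma-voom the random replicate block changed 1 call, that of Spp1 between the sex labels (adjusted p = 0.0924, against 0.0499), and it changed no other call. Timp2 with lipofuscin in WT also passed with no filter and without the choroid plexus libraries.

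Some differences that did not pass the test changed sign. With lipofuscin in WT, the log2 difference of Csf1 was -0.11 with library size only, -0.14 in both limma-voom fits, -0.11 with the fixed block, -0.0042 with the 10 CPM filter and -0.11 without the choroid plexus libraries, and -0.15 to 0.26 when animals were left out. That of Csf1r was -0.14, then -0.0508 and -0.0519, then -0.0162, -0.0228 and -0.0736 in these settings, and -0.075 to 0.11 when animals were left out. Serpine2 between GrnKO low and WT high was -0.0022 and -0.0034 with limma-voom, -0.0043 without the sex label and -0.0216 without the choroid plexus libraries, and -0.0905 to 0.12 when animals were left out. Its interaction was -0.016 to 0.13 when animals were left out. For the genotype difference between labelled sexes, Csf1 was 0.0077 with RLE, 0.0088 with DESeq2, 0.11 in both limma-voom fits and 0.53 without the choroid plexus libraries, and -0.49 to 0.36 when animals were left out. In that comparison Timp2 was 0.057 without the choroid plexus libraries and -0.56 to 0.17 when animals were left out, and Igf1 was -0.036 to 0.25. Between the sex labels, without the choroid plexus libraries, Csf1r was -0.0068 and Timp2 -0.0336, and they were -0.0069 to 0.13 and -0.11 to 0.21 when animals were left out. The causes were not tested. Scaling by library size only moved the median log2 fold change of all genes in the low bin from -0.03 to -0.17 and the genes called there from 38 higher and 8 lower to 29 higher and 19 lower. The split went in the high bin from 19 higher and 4 lower to 14 and 7, with lipofuscin in WT from 14 and 21 to 10 and 25, and in GrnKO from 4 and 25 to 1 and 27. Over all genes, DESeq2 called 361 and the unfiltered fit 313 genes in the low bin, against 46, and DESeq2 called 192 against 23 in the high bin, 263 against 35 with lipofuscin in WT and 302 against 29 in GrnKO.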
